A study of Mus musculus with 28 samples.

Results

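H3K4me2, the dimethylated form of lysine 4 of histone H3, was mapped by chromatin immunoprecipitation and sequencing in the mouse bone cell line IDG-SW3 at day 35 and at day 3 of differentiation. The regions described here are all called regions of the 2 H3K4me2 lists on chromosomes 1 to 19, which come to 110004 of the 937290 regions in the 26 lists of the series. The day-35 list held 65207 of them and the day-3 list 44797. IDG-SW3 cells multiply at 33 °C with interferon gamma. Counting of days starts with the move to 37 °C and to osteogenic medium that contained ascorbic acid and β-glycerophosphate and no interferon gamma. Cells of both days were untreated and the labels call both osteocytic. The line holds a reporter gene for a fluorescent protein under the Dmp1 promoter, and promoter reads of the reporter also count at Dmp1. Each day has 1 library, so no difference between the days has a replicate check, no test was run, and day cannot be told apart from library. The rest of the series covers 8 other histone marks at the same days and 2 DNA-binding receptors, the vitamin D receptor (VDR) and the retinoid X receptor (RXR), at day 35.

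Lysine 4 of histone H3 carries 1, 2 or 3 methyl groups. The trimethylated form is concentrated at active promoters and the monomethylated form at enhancers, while H3K4me2 is found at both, flanking promoters and over enhancers that are active or held ready for use. In bone, osteoblasts make and mineralize the collagen matrix and some become osteocytes, cells buried in the matrix that sense load and control mineral through Sost, Dmp1, Mepe and Fgf23. In chromatin pooled from many cells, a wider spread of a mark over the cells and more of it in each cell cannot be told apart.

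Sequences are shown for 3 regions called at day 35 alone and 3 called at day 3 alone. They are examples of the 2 classes of distal region that the results turn on. All 6 are among the 8 highest-scoring regions of their class and are wider than most of it. Each is the central 200 bases on the plus strand of build mm9 (assembly NCBIM37), 5′ to 3′, and capitals mark matches to the RUNX letters TGTGGT or their reverse complement. Runx2, which binds such letters, directs osteoblast formation.
Hdac4, gained (chr1:94074800-94074999): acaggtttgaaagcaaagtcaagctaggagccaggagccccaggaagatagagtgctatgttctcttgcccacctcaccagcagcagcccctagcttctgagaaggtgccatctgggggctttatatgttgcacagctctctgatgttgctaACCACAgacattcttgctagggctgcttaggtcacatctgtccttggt
Greb1, gained (chr12:16745031-16745230): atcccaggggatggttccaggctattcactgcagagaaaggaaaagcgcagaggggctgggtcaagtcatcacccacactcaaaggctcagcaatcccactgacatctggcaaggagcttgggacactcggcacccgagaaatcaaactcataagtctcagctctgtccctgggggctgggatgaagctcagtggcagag
Fat3, gained (chr9:16305061-16305260): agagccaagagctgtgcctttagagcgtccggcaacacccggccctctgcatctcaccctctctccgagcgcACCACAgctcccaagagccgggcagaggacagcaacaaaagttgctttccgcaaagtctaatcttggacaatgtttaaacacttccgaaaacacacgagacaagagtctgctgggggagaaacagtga
Kalrn, lost (chr16:34491752-34491951): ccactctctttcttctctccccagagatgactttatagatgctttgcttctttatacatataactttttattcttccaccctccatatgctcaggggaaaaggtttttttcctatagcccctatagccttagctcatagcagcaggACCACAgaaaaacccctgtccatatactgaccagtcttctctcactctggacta
Nt5c1b, lost (chr12:10255864-10256063): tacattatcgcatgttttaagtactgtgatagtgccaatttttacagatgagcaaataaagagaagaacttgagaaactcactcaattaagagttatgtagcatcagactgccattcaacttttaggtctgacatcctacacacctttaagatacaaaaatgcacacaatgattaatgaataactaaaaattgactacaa
Dach1, lost (chr14:97802154-97802353): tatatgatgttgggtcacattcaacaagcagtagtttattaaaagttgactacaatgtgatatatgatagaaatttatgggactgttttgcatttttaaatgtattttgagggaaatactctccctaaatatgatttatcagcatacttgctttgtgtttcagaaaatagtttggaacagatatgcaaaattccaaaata
The stretches named for Hdac4, Fat3 and Kalrn hold the RUNX letters and the other 3 do not. Hdac4 and Kalrn were picked for holding RUNX letters or those of AP-1 (TGANTCA), so a match in each class was set by the choice. Greb1, Fat3, Nt5c1b and Dach1 were picked for an acetyl mark called at their own day alone. G and C made up 51.5%, 55.5% and 54.0% of the day-35 stretches (Hdac4, Greb1, Fat3) and 42.5%, 32.0% and 29.0% of the day-3 stretches (Kalrn, Nt5c1b, Dach1). In the central 200 bases of all gained and all lost regions the medians were 45.5% and 42.5%, a smaller difference.

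H3K4me2 covered more of the genome at day 35 than at day 3. Called regions spanned 127.5 Mb at day 35, against 86.2 Mb at day 3. The ratio of 1.48 ranged over the chromosomes between 1.31 on chromosome 16 and 1.77 on chromosome 1. Nearly all of what was covered at day 3 was covered again, 88.9% of its length, while 60.1% of the day-35 length had been covered at day 3. The corresponding ratios of covered length were 0.998 for H3K4me1, 0.740 for H3K4me3 and 1.20 for H3K27Ac, an acetyl mark of active promoters and enhancers. The authors' region score, whose scaling is not stated, reached down to 6.8 at day 35 and to 11.8 at day 3. Of the different scores up to 60, 99.5% of 213 at day 35 lay within 0.052 of a whole multiple of 0.251, and 100.0% of 58 at day 3 within 0.052 of a whole multiple of 0.839. The day-3 step was thus 3.35 times the day-35 step. Among other marks whose scores fitted a step as well at both days, this ratio was 1.61 for H3K4me3, 1.21 for H3K9Ac and 0.955 for H3K9me3. The H3K4me2 pair therefore differed most in its score unit, whose meaning is not stated. Read depth is not stated for either library, and its part in the ratio of 1.48 was not tested.

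By number, most regions without a counterpart were distal, 23736 of 24830 at day 35 and 3503 of 3619 at day 3. Distal here means more than 1 kb from every start site of a protein-coding gene. Distal regions made up 79.7% of the day-35 list (51961) and 72.6% of the day-3 list (32529). Of the day-35 distal regions 23736 overlapped no day-3 region and are called gained, which is 45.7%. Of the day-3 distal regions 3503 overlapped no day-35 region and are called lost, which is 10.8%. The other distal regions merged into 27852 kept regions. This balance depended on where the lists end: with the day-35 list limited by score to as many regions as the day-3 list, 8215 were gained and 7545 lost, and with it limited to the covered length of day 3, 555 were gained and 19269 lost.

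Gained and lost regions were narrow and had low scores. Gained regions had a median width of 756 bp and lost regions of 500 bp, the smallest width in the lists, against 1514 bp for kept regions. The median gained region lay at percentile 22.8 of the day-35 scores, and the median lost region at percentile 10.8 of the day-3 scores. In the lowest 10% of the day-35 list by score 86.1% of distal regions were gained, and in the top 10% 0.607%, which is 3 regions. In the lowest 10% of the day-3 list 36.4% were lost, and in the top 10% 0.236%, which is 1 region. Distal regions in the top 10% by score were therefore shared by both days almost without exception, the exceptions being those 4. At or above the median score of their list, 2405 regions were gained and 75 lost. Kept regions were also broader at day 35: 71.9% were wider at day 35 and 26.1% at day 3, with a median difference of 255 bp.

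**Figure D1:**
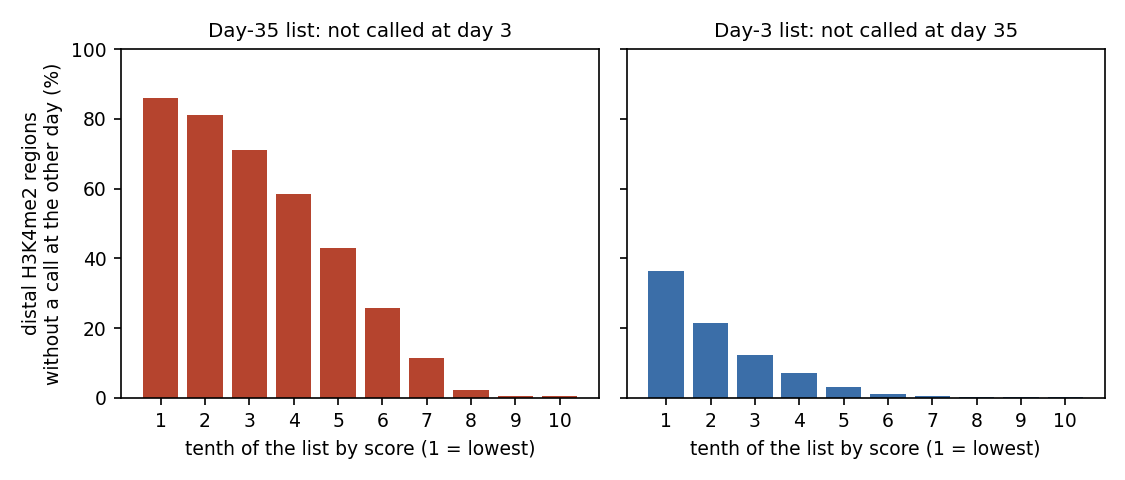
Percent of distal H3K4me2 regions (y axis) not called at the other day, by rank of the authors' score within each list in steps of 10% (x axis, 1 = lowest), for the day-35 list (left) and the day-3 list (right). The share drops from 86.1% in the lowest to 0.607% in the top step at day 35, and from 36.4% to 0.236% at day 3.

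Most gained regions lay in chromatin that already had enhancer marks. H3K4me1 was called at 93.7% of gained regions at day 35 (93.4 to 94.0, 95% Wilson interval, which covers counting error alone) and at 82.9% at day 3 (82.4 to 83.3). H3K27Ac was called at 69.6% at day 35 (69.0 to 70.1) and at 52.9% at day 3 (52.3 to 53.5). H3K9Ac and H4K5Ac, 2 further acetyl marks of active chromatin, were called at 45.9% and 81.4% at day 35 and at 27.9% and 62.0% at day 3. Each of these 4 marks was thus found at more gained regions at day 35 than at day 3. H3K4me3 was rare, at 0.388% of gained regions at day 35 and 0.118% at day 3.

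Lost regions went the other way. H3K27Ac was called at 65.1% of them at day 35 (63.6 to 66.7) and at 82.7% at day 3 (81.4 to 83.9), and H3K9Ac at 23.1% at day 35 and 44.6% at day 3. H3K4me1 was called at 85.7% at day 35 and 95.6% at day 3. Kept regions had more of every one of these marks, and their H3K27Ac share was 88.8% at day 35 and 95.1% at day 3. Their H3K27Ac share was lower at day 35 than at day 3, while that of gained regions was higher. RXR after treatment with 1,25(OH)2D3, the active form of vitamin D, overlapped 3.02% of gained, 1.97% of lost and 13.7% of kept regions, and VDR overlapped 0.426%, 0.285% and 1.38%. Kept regions are wider, and in the central 500 bp alone RXR overlapped 2.65% of gained and 8.14% of kept regions.

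**Figure D2:**
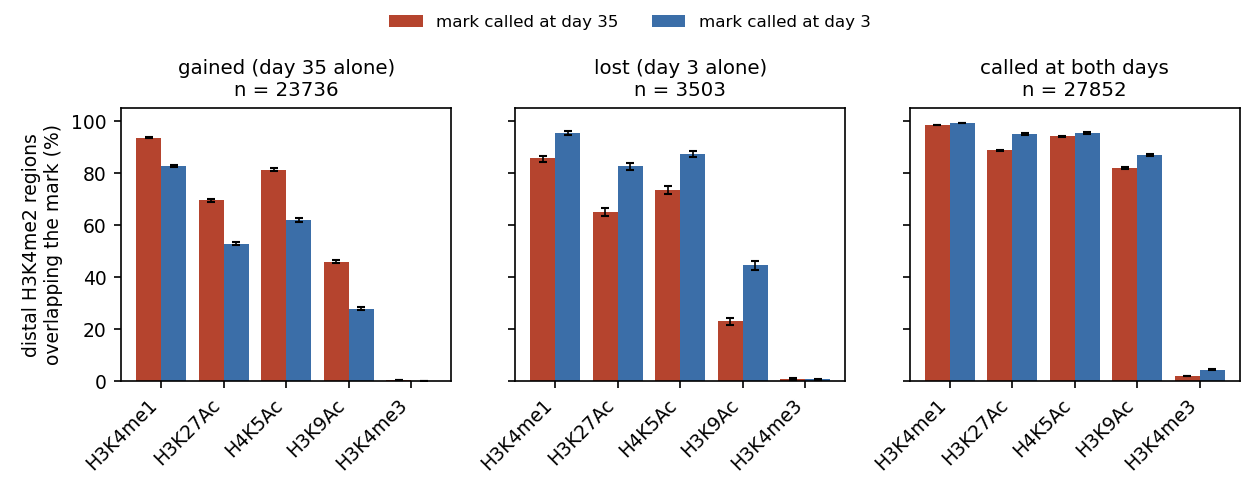
Percent of distal H3K4me2 regions overlapping each other mark at day 35 (red) and day 3 (blue), for regions gained, lost and called at both days. Bars are shares and whiskers 95% Wilson intervals. H3K27Ac stands at 69.6% at day 35 and 52.9% at day 3 in gained regions, and at 65.1% and 82.7% in lost regions.

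Gained regions fell into subsets by the history of the other marks. At 11123 of them (46.9%) H3K27Ac was called at both days. At 3883 (16.4%) H3K4me1 was already called at day 3 and H3K27Ac at day 35 alone. At 1473 (6.21%) both H3K4me1 and H3K27Ac were called at day 35 alone. Auts2, a regulator of neuronal development and transcription, was the nearest start of 9 regions of that last kind, and Dapk1, a death-associated kinase, and Gli2, a transcription factor of hedgehog signalling, of 5 each. Among lost regions 736 (21.0%) had H3K27Ac at day 3 alone, with Angpt1, a vessel growth factor, and Tnfaip3, an inhibitor of NF-κB signalling, near 3 each.

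By nearest start within 100 kb, 8239 genes (38.7%) had a gained distal region and 2018 (9.49%) a lost one. Arhgap24, which switches off the GTPase Rac, had the most gained regions, 24 with 0 lost. Mast4, a microtubule-associated kinase, had 21, and Ank3, Foxp1, Pard3 and Tcf7l2 had 15 each. Foxp1 and Tcf7l2 encode transcription factors, and that of Tcf7l2 is an effector of Wnt signalling. Gli2 had 14, and the gene with its 5 kb flanks was covered to 14.7% at day 35 and 2.98% at day 3. Long genes have more room for such regions: the window of Arhgap24 was covered to 10.4% at day 35 and 3.12% at day 3. Trp63, a transcription factor of epithelia, had the most lost regions, 7, beside 7 gained. Col3a1, Fggy and Lpp had 6 lost regions each, of which Col3a1 encodes the fibrillar collagen III and had 5 gained.

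The highest-scoring gained regions were large. The first, chr6:128785775-128796051, spans 10277 bp in intergenic sequence 14.6 kb upstream of Klrb1b, a receptor of natural killer cells, and had a score of 2919.0. The next lay at chr1:94071218-94078581, 29.9 kb upstream of the histone deacetylase gene Hdac4, which restrains chondrocyte maturation, and at chr4:140828430-140835945, 25.0 kb upstream of the ephrin receptor gene Epha2. These 3 are the gained regions in the top 10% of scores, and at each of them H3K4me1, H3K4me3, H3K27Ac, H3K9Ac and H4K5Ac were called at day 3. Their absence from the day-3 H3K4me2 list therefore had no counterpart in the day-3 lists of those 5 marks. A region within an intron of Greb1, a cofactor of oestrogen receptor, chr12:16742759-16747503, differed in more marks: H3K27Ac and H3K9Ac were called there at day 35 alone. At chr9:16302887-16307434, upstream of the cadherin gene Fat3, H3K27Ac and H4K5Ac were called at day 35 alone.

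Among lost regions the strongest, chr15:80536273-80543269, 37.5 kb downstream of the start of Fam83f, kept all 6 other marks that it had at day 3. A region far downstream of Dach1, a repressor in limb and eye development, chr14:97801072-97803435, was called at day 3 for H3K4me1, H3K27Ac, H3K9Ac and H4K5Ac and for none of them at day 35. Near Nt5c1b, H3K9Ac and H4K20me1 were called at day 3 alone. The lost region chr11:3022778-3027686 adjoins a stretch of chromosome 11 that nearly every histone list covers. On chromosome 10 a block at chr10:115789494-117409454 held 530.6 kb of H3K4me2 at day 35 and 252.8 kb at day 3. Leaving it out gave 23678 gained regions.

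Sequence differed slightly between the classes. In the central 500 bp, median GC content was 44.8% in gained, 41.8% in lost and 45.4% in kept regions, and 43.8% in windows moved by 10 kb. Letters were searched on both strands. The AP-1 letters TGANTCA, bound by Fos and Jun proteins, were in 27.5% of gained, 20.4% of lost and 25.4% of all distal windows, against 14.3% of moved windows. The RUNX letters TGTGGT were in 43.6% of gained, 37.0% of lost, 41.0% of all distal and 33.4% of moved windows. TEAD letters GGAATG were in 31.3% of gained, 30.2% of lost and 24.4% of moved windows. GATA letters AGATAA were in 24.7% of gained, 31.0% of lost and 27.1% of moved windows, and lost windows are poorer in G and C. The letters of the interferon-stimulated response element were in 10.6% of gained, 12.3% of lost and 7.29% of moved windows. SP/KLF letters GGGCGG were in 8.44% of gained, 4.25% of lost and 12.2% of kept windows. Several of these contrasts depended on the regions compared. Of the 2405 gained and 74 lost regions scored at or above the median of their list, GATA letters were in 24.1% and 23.0%. Those of the interferon element were in 8.98% and 4.05%. For both motifs the order of the classes turned there, but the lost shares rest on 17 and 3 of 74 windows. RUNX letters were there in 43.0% and 28.4% and AP-1 letters in 24.3% and 21.6%. When the classes were made from the higher-scoring 50% of each list, AP-1 letters were in 24.6% of gained and 24.9% of lost windows and RUNX letters in 40.4% and 39.9%.

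The other letters searched were E-box CANNTG, C/EBP TTGCNNAA, MEF2, gamma-activated site TTCNNNGAA, E2F TTTNGCGC, TCF/LEF CTTTGAT, NFI, homeobox TAATTA and ETS CCGGAAG. The ETS letters were in 2.60% of gained, 1.17% of lost and 2.83% of all distal windows. The gamma-activated site letters were in 18.4% of gained, 18.2% of lost and 18.2% of all distal windows, so the classes lay close together. C/EBP letters were in 24.6% of gained, 25.2% of lost and 24.1% of all distal windows. E-box letters occur in 93.1% of gained and 93.6% of moved windows and TAATTA in 14.3% and 14.4%, so gained and moved windows differed by under 1 percentage point for these short letters. MEF2 letters were in 8.81% of gained and 8.38% of moved windows, TCF/LEF letters in 8.30% and 9.21%, E2F letters in 0.699% and 0.401%, and NFI letters in 0.0674% and 0.0309%. AP-1 and gamma-activated site letters can share bases, and a match describes letters alone.

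At genes, coverage is the share, in percent, of a gene and its 5 kb flanks that falls in called regions, and a change is called when it exceeds 10 points. Of 21275 autosomal protein-coding genes 1989 (9.35%) were higher at day 35 by that rule and 123 (0.578%) lower. With the day-35 list limited to as many regions as the day-3 list as well, 1736 (8.16%) were higher in both settings and 123 (0.578%) lower. That limit only takes regions away from day 35, so no lower gene could leave the count. With the limited list 140 genes (0.658%) were lower. The median gene was covered to 9.57% at day 35 and to 6.37% at day 3. Well-covered genes passed the rule more often: 27.8% of genes with a mean coverage of 20 to 40% and 35.0% of those above 40% were higher, against 10.9% of those from 10 to 20% and 2.17% of those up to 10%. The share called among genes of like coverage, given beside a list below, is that of the class that holds the list's median member. Members of a list spread over several classes, so this share is not matched to the members that passed. It also jumps at a class limit: the median member lay at 18.1% for the osteocyte list and at 20.7% for the Wnt list. The 5 kb flanks let neighbouring genes share regions.

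Among the genes named by rule, the largest rise was at Cdkn2a, which encodes the senescence-linked cell-cycle inhibitors p16Ink4a and p19Arf: its window was covered to 82.8% at day 35 and to 0 at day 3. At the same window H3K27Ac covered 91.4% at day 35 and 96.4% at day 3, and H3K4me3 9.42% and 25.7%. H3K4me1, H3K9Ac and H4K5Ac covered 77.4%, 87.7% and 91.6% of it at day 35 and 92.8%, 90.3% and 97.6% at day 3. Whether the day-3 H3K4me2 list left out marked sequence there is not known. Mt1, a metal-binding metallothionein, had 64.7% at day 35 and 2.96% at day 3, with H3K27Ac at 69.2% and 55.3%. Aqp5, a water channel, had 59.9% and 10.0% for H3K4me2 at day 35 and day 3, and for H3K9Ac 77.0% and 25.4%, so another mark was broader there too. Mxra8, a matrix remodelling protein, was covered completely at day 35 (100.0%) and to 51.3% at day 3. Ckap4, an endoplasmic reticulum anchor, had 48.5% at day 35 and 0 at day 3. There too other marks were called at both days, H3K4me1 over 54.2% at day 35 and 50.2% at day 3 and H3K9Ac over 37.1% and 44.5%, so the same doubt holds.

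Among the genes named by rule, the largest fall was at Lbx1, a homeobox gene of limb muscle precursors, with 9.59% at day 35 and 58.6% at day 3; H3K4me1 there had 11.7% and 60.5%. The next were Tap1, with 34.3% at day 35 and 74.1% at day 3, and Lrdd, a death-domain protein gene, with 31.0% and 66.0%. Marcksl1, which binds actin at the membrane, had 18.4% at day 35 and 52.7% at day 3. Cd248, a surface protein of stromal cells, had 59.8% and 85.1%. Csf1, the growth factor of macrophages and osteoclast precursors, had 39.2% at day 35 and 62.9% at day 3, while H3K27Ac covered its whole window (100.0%) at both days. Fbxo45, part of a ubiquitin ligase, was the gene without any region at day 35 that had the most at day 3, 3.88 kb.

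**Figure D3:**
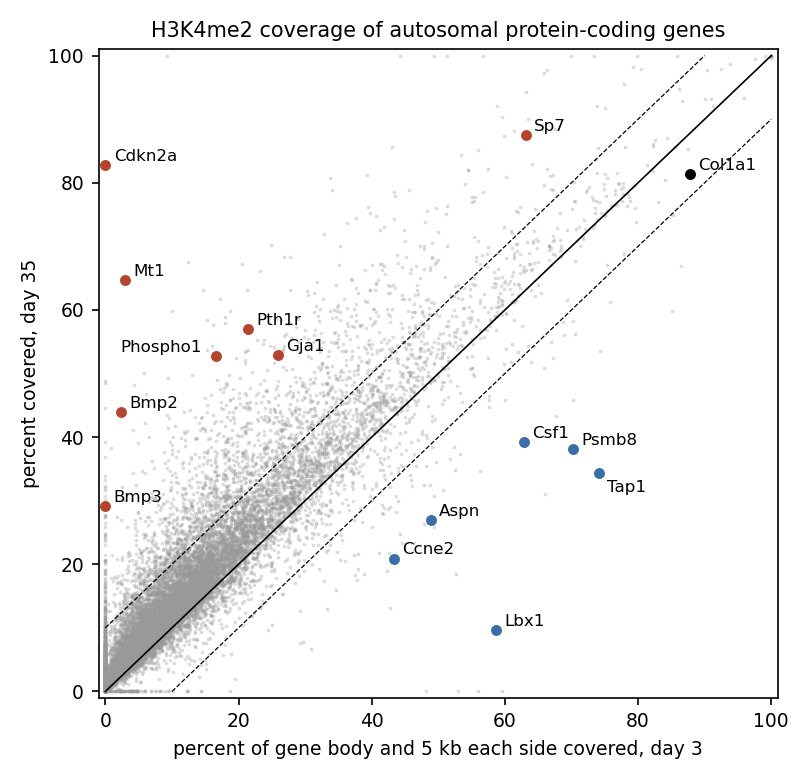
H3K4me2 coverage at day 35 (y axis, percent of gene body and 5 kb each side) against day 3 (x axis) for autosomal protein-coding genes, 1 point a gene. Dashed lines mark a difference of 10 points, red marks named genes higher by more than that, blue named genes lower by more than that, and black Col1a1, which is within it. Cdkn2a stands at 82.8% at day 35 and 0 at day 3, and Tap1 at 34.3% and 74.1%.

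Of 19 osteoblast genes, 8 were higher at day 35 and 1 lower, and the median member was covered to 35.6% at day 35 and 21.4% at day 3. The count of 8 is 42.1% of the list, beside the 27.8% of all genes with a mean coverage of 20 to 40%. Every one of the 19 had H3K4me2 at a start site at day 35 and 18 at day 3. Pth1r, the receptor of parathyroid hormone, had 57.0% at day 35 and 21.4% at day 3. Dlx3, a homeobox activator of bone genes, had 53.7% and 21.5%. Sp7, the transcription factor osterix, had 87.5% at day 35 and 63.1% at day 3. The genes of these 3 regulators of the lineage already had the mark at day 3 and had more of it at day 35. Among genes for matrix proteins of mineralized bone, Spp1 (osteopontin) had 35.1% at day 35 and 9.32% at day 3, and Ibsp (bone sialoprotein) 29.9% and 7.77%. Bglap, for osteocalcin, had 21.6% at day 35 and 4.56% at day 3, and was the osteoblast gene whose start site was marked at day 35 alone. Its near-identical neighbour Bglap2 had 32.5% and 4.56%, and reads of the pair may be split between them. Under the limit to equal covered length the difference at both was -4.56 points.

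Genes that make the collagen I matrix did not follow. Col1a1 had 81.4% at day 35 and 87.8% at day 3, within 10 points. Col1a2 was the osteoblast gene called lower, with 75.0% at day 35 and 85.3% at day 3. Runx2, the master regulator of the lineage, had 26% at day 35 and 20.1% at day 3, also within 10 points, over a long gene with 5 gained and 2 lost distal regions. Alpl, tissue-nonspecific alkaline phosphatase, had 41.4% and 29.5% and was called higher, but under the limit to equal covered length its difference was -8.36 points.

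Of 16 osteocyte genes 7 (43.8%) were higher and 0 lower, beside 10.9% of genes of like coverage and 9.35% of all genes. Gja1, the gap-junction protein connexin 43 of osteocyte processes, had 52.9% at day 35 and 25.9% at day 3. Tnfrsf11b, the decoy receptor osteoprotegerin, had 30.6% and 6.99%, and Tnfsf11, its ligand RANKL, had 19.9% and 7.5%. Both members of this pair, which together set osteoclast formation, were higher. Mepe, a phosphate-regulating matrix protein, had 17.1% at day 35 and 5.21% at day 3, with no mark at its start site at either day. With equal covered length its difference was -5.21 points. Dmp1, with the caveat of the transgene, had 50.2% and 45.4%. Sost, the Wnt inhibitor sclerostin, had 13.0% at day 35 and 11.5% at day 3, Fgf23, the phosphate hormone, had 7.66% and 8.14%, and Pdpn, a surface protein of early osteocytes, had 24.2% and 24.3%. These 4 stayed within 10 points, and Sost and Fgf23 had no H3K4me2 at a start site at either day.

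Mineralization genes were higher in 6 of 16 (37.5%, beside 10.9% of genes of like coverage) and lower in 0. Phospho1, a phosphatase of matrix vesicles, had 52.7% at day 35 and 16.6% at day 3, with H3K27Ac at 95.1% and 32.2%. Ank, a pyrophosphate transporter, had 17.6% and 4.96%, and Slc20a1, a phosphate transporter, had 32.3% and 18.3%. Enpp1, which makes pyrophosphate, had 4.35% at day 35 and 2.72% at day 3. Among 17 vitamin D targets 6 (35.3%, beside the same 10.9%) were higher, among them Rxra with 29.7% at day 35 and 11.6% at day 3. Vdr had 10.9% and 7.90%, and Cyp24a1, the vitamin D degrading enzyme, had 0 at both days in these untreated cells.

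**Figure D4:**
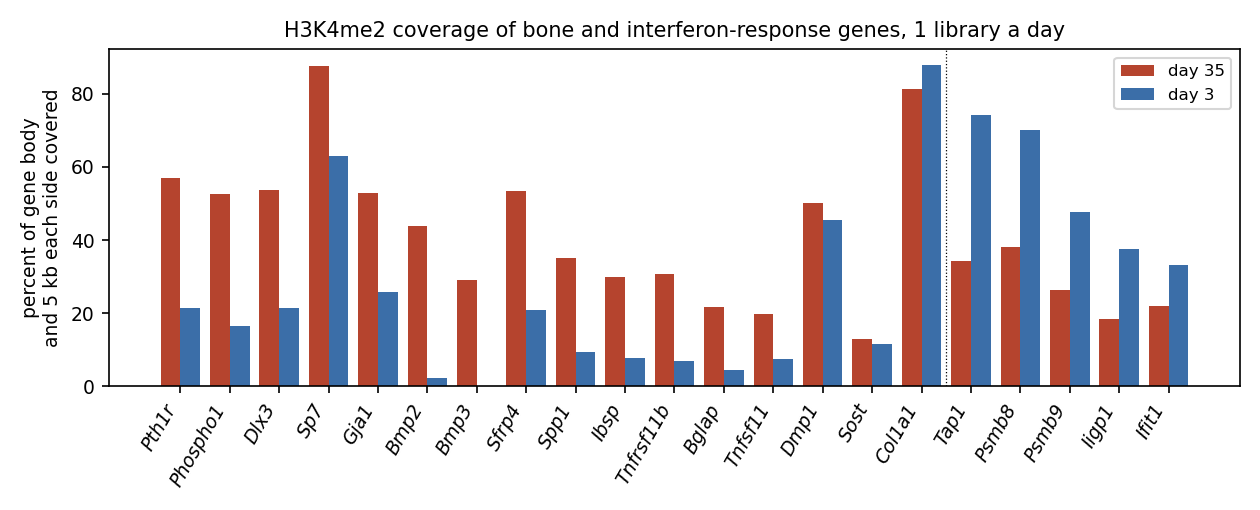
Percent of gene body and 5 kb each side covered by H3K4me2 at day 35 (red) and day 3 (blue), 1 library a day and so without error bars, for bone genes (left of the dotted line) and interferon-response and antigen-presentation genes (right). Pth1r stands at 57.0% at day 35 and 21.4% at day 3, and Tap1 at 34.3% and 74.1%.

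Signalling lists held many genes that were higher at day 35. Of 32 Wnt pathway genes 12 were higher and 0 lower, and all 32 had a marked start site at both days. That is 37.5%, beside the 27.8% of genes with a mean coverage of 20 to 40%. Sfrp4, a secreted Wnt inhibitor, had 53.4% at day 35 and 20.9% at day 3. Ctnnb1, encoding β-catenin, had 43.1% and 13.4% and 8 gained distal regions. The receptor gene Fzd5 had 58.3% at day 35 and 32.1% at day 3, and the transcription factor gene Tcf7 had 32.0% and 11.5%. Ligand genes of the list, such as Wnt5a with 38.6% at day 35 and 32.9% at day 3 and Wnt10b with 63.9% and 62.1%, differed by less. The receptor genes Lrp5 and Lrp6 had 16.0% and 25.3% at day 35 against 15.2% and 25.4% at day 3.

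Of 37 BMP and TGF-beta genes 10 were higher and 0 lower, and 7 of them passed in both settings. The 10 are 27%, about the 27.8% of genes of like coverage. The ligand genes stood at the top. Bmp2, a bone-inducing ligand, had 43.9% at day 35 and 2.41% at day 3, with H3K27Ac at 35.6% and 0. Bmp3, which opposes the other bone morphogenetic proteins, had 29.1% at day 35 and 0 at day 3, with H3K27Ac at 18.7% and 0. At both genes H3K27Ac was thus called at day 35 alone, while H3K9Ac covered 19.9% of the Bmp3 window at day 35 and 1.73% at day 3. The direct target genes Id1, Id2 and Id3 had 70.9%, 71.1% and 77.1% at day 35 against 70.8%, 71.8% and 78.8% at day 3, so the targets were broadly covered at both days. The receptor genes Bmpr1a and Tgfbr2 had 19% and 23.1% at day 35 against 15.4% and 11.3% at day 3.

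In the FGF and ERK list 9 of 21 genes (42.9%, beside 27.8% of genes of like coverage) were higher and 0 lower, and every member was covered at least slightly more at day 35. Spry4 had 44.3% at day 35 and 12.7% at day 3, Spry1 47.5% and 17.2%, and Spry2 64.1% and 40.7%. All 3 encode Sprouty proteins, feedback inhibitors of receptor tyrosine kinases. The receptor gene Fgfr1 had 43.2% at day 35 and 19.1% at day 3. Of 12 IGF axis genes 7 (58.3%, beside the same 27.8%) were higher and 0 lower, the highest share among the 41 lists. The binding-protein gene Igfbp3 had 23.7% at day 35 and 0 at day 3, Igfbp6 had 62.7% and 37.9%, and Irs1, the receptor's adaptor, had 41.2% and 21.9%. Within 2 kb of start sites Igfbp6 differed by -1.43 points. The ligand gene Igf1 had 15.0% and 9.61%, within 10 points.

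Of 19 genes of parathyroid hormone and cyclic AMP signalling 5 were higher (26.3%, beside 10.9% of genes of like coverage). Beside Pth1r these included Gnas, encoding the stimulatory G protein, with 36.3% at day 35 and 7.03% at day 3, and Sik1, a salt-inducible kinase, with 25.4% and 11.3%. In the Notch list 3 of 13 (23.1%) were higher, below the 27.8% of genes of like coverage, with the target gene Hes1 at 90.1% at day 35 and 63.5% at day 3. Among 14 YAP and TEAD targets 5 (35.7%, beside 27.8%) were higher and 1 lower. Ctgf, a matricellular growth factor, had 49.0% at day 35 and 16.7% at day 3, and Amotl2, a YAP inhibitor, had 44.7% and 57.6%. The lists of ligands, receptors and targets thus each held members that passed and members that stayed within 10 points.

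Matrix genes were mixed. Of 24 collagen genes 3 were higher and 1 lower, a share of 12.5% against the background of 9.35%. Of the 3, Col11a2 passed in both settings, with 19.1% at day 35 and 0 at day 3, and its window adjoins Rxrb, which had 72.6% and 41.3%. Of 25 matrix protein and assembly genes 5 were higher (20%, beside 10.9% of genes of like coverage) and 2 lower. Thbs1, which activates TGF-beta, had 70.0% at day 35 and 35.3% at day 3, and Lum, for lumican, had 44.7% and 21.0%. Aspn, for asporin, and its neighbour Omd, for osteomodulin, were the lower ones, with 26.9% and 34.0% at day 35 against 48.9% and 45.7% at day 3. Within 2 kb of its start sites Aspn differed by 0.0250 points. Metalloproteinases and their inhibitors were higher in 8 of 21 (38.1%, beside 10.9%), among them the stromelysin gene Mmp3 with 20.7% at day 35 and 2.48% at day 3 and Timp3 with 41.5% and 20.3%. With equal covered length the difference at Mmp3 was -2.48 points. Mmp13, the collagenase of bone, had 25.0% at day 35 and 18% at day 3.

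Of 15 antigen presentation genes found 5 were lower at day 35, 0 higher and 10 within 10 points, with differences from -39.8 to 7.33 points. The share of 33.3% lower compares with 0.578% of all genes and 1.81% of genes of like coverage. Tap1, the peptide transporter, had 34.3% at day 35 and 74.1% at day 3, and the immunoproteasome genes Psmb8 and Psmb9 beside it had 38.1% and 26.3% at day 35 against 70.2% and 47.8% at day 3. H3K27Ac in the Tap1 window had 67.6% at day 35 and 100.0% at day 3, and H3K4me3 12.6% and 28.5%. H3K4me1 had 58.6% and 85.4% there, and H3K9Ac 41.5% and 80.6%. The remaining marks were narrower there at day 35 too, except H3K9me3, which had 0 at both days. These 3 genes are neighbours and share regions. Cd74, the class II invariant chain, had 5.90% at day 35 and 18.8% at day 3, and H2-DMa, which loads class II molecules, had 20.6% and 35.2%. With 20 kb flanks the difference at H2-DMa was 0.0114 points. B2m, the class I light chain, had 49.9% and 55.2%, within 10 points.

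The interferon response list held 3 lower (10.7%) and 1 higher gene (3.57%) of 28. Of genes of like coverage 0.290% were lower and 10.9% higher, and of all genes 0.578% and 9.35%. Iigp1, an interferon-induced GTPase, had 18.3% at day 35 and 37.5% at day 3, and Ifit1, an antiviral RNA-binding protein, had 21.9% and 33.1%. Within 2 kb of start sites Iigp1 differed by 1.18 points. At both of these H3K27Ac was narrower too, with 18.5% and 12% at day 35 against 49.5% and 63.5% at day 3. Ifi35 was the higher one, with 47.7% at day 35 and 33.8% at day 3. All 28 kept H3K4me2 at a start site at both days, and 24 stayed within 10 points. The medium had contained interferon gamma before day 0 and did not afterwards. Its part was not tested.

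Cell-cycle lists differed in their counts. Of 22 mitosis genes 0 were higher and 1 lower (4.55%), Cdc20, the activator of the anaphase-promoting complex, with 35.4% at day 35 and 48.2% at day 3. Of genes of like coverage 10.9% were higher and 0.290% lower. Of 22 DNA replication genes 1 was higher (4.55%) and 2 lower (9.09%), beside 27.8% and 1.81% of genes of like coverage. Ccne2, cyclin E2, had 20.9% at day 35 and 43.3% at day 3, and Rrm2, a ribonucleotide reductase subunit, had 27.9% and 41.7%. E2f2, a transcription factor of S phase, had 27.1% and 16.9%. All 44 genes of these lists had a marked start site at both days. G1 regulators were higher in 6 of 14 (42.9%, beside 35.0% of genes of like coverage) and lower in 0. Beside Cdkn2a they included the inhibitor genes Cdkn1c (p57), with 61.8% at day 35 and 17.2% at day 3, and Cdkn1a (p21), with 60.2% and 43.1%. They also included genes that drive the cycle, Cdk4 with 74.8% at day 35 and 40.7% at day 3, Ccnd1 with 42.7% and 32.4% and Mycn with 30.1% and 3.96%.

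Of 39 Hox genes 15 were higher (38.5%, beside 27.8% of genes of like coverage) and 1 lower, and neighbours in a cluster share regions. Hoxa7 had 97.7% at day 35 and 66.4% at day 3, Hoxb7 34.3% and 4.23%, and Hoxd8 60.5% and 34.8%. With equal covered length the difference at Hoxb7 was -4.23 points. Hoxc13 was the lower one, with 52.5% at day 35 and 67.3% at day 3, next to Hoxc12 with 100.0% and 69.9%. Of 32 other limb and skeletal patterning genes 8 (25.0%, below the 27.8% of genes of like coverage) were higher. Of these 7 passed in both settings, including Tbx2 with 82.0% at day 35 and 54.4% at day 3. Immediate early genes were higher in 4 of 19 (21.1%), below the 35.0% of genes of like coverage, led by Nr4a1, a nuclear receptor induced by hormones and load, with 43.0% at day 35 and 14.3% at day 3. Clock genes were higher in 5 of 17 (29.4%), near the 27.8% of genes of like coverage, with 4 of them in both settings, including Bhlhe40 with 75.6% and 48.3% and Dbp with 70.1% and 47.3%.

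Genes in general use also passed the rule. Of 24 ribosomal protein genes 11 were higher and 0 lower (45.8%, beside 27.8% of genes of like coverage), with Rplp0 at 60.2% at day 35 and 32.3% at day 3. Of 22 glycolysis and oxygen-sensing genes 10 were higher (45.5%, beside the same 27.8%). Aldoa had 67.0% at day 35 and 35.1% at day 3, Gapdh 46.3% and 28.0%, and Egln3, an oxygen-dependent hydroxylase, 44.0% and 11.8%. Of 11 housekeeping genes 3 were higher (27.3%), about the 27.8% of genes of like coverage. The osteoblast, osteocyte and Wnt shares were 42.1%, 43.8% and 37.5%, so none exceeded that of ribosomal protein genes. Genes of like coverage were higher in 27.8% for the osteoblast and Wnt lists and in 10.9% for the osteocyte list. The Wnt and osteocyte medians, 20.7% and 18.1%, lie close together on either side of the class limit of 20%. The step from 10.9% to 27.8% between these 2 lists thus reflects that limit. Cytoskeletal genes of cell processes were higher in 6 of 22 (27.3%, beside 10.9% of genes of like coverage). Axon guidance genes were higher in 5 of 32 (15.6%, beside 2.17% of genes of like coverage and 9.35% of all genes). Their median member, at 9.65%, lay just under 10%, and 10.9% of genes from 10 to 20% were higher. Of the 5, 3 passed in both settings, led by Sema3b with 58.4% at day 35 and 15.3% at day 3.

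**Figure D5:**
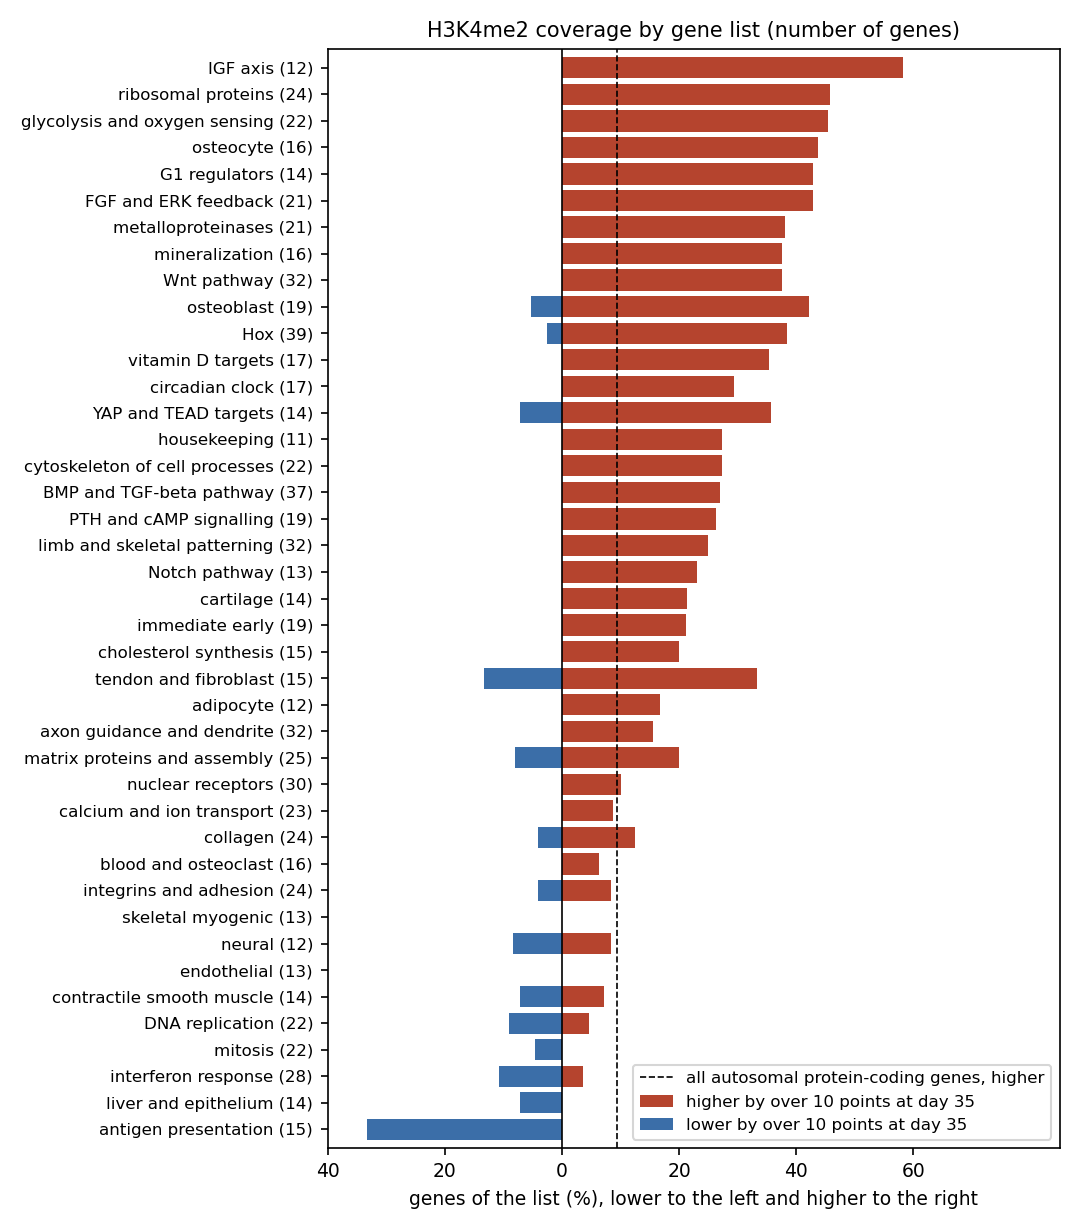
Percent of the genes of each list (number of genes in brackets) whose H3K4me2 coverage at day 35 was over 10 points higher (red, to the right) or lower (blue, to the left) than at day 3. The dashed line marks 9.35%, the share of all autosomal protein-coding genes that were higher. The IGF axis stands at 58.3% higher and antigen presentation at 33.3% lower.

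Marker lists of other cell types had low median coverage at both days, with single members above it. For these lists, 2.17% of genes of like coverage were higher and 0.174% lower. Of 13 endothelial genes 0 were higher and 0 lower, with a median of 4.57% at day 35 and 2.45% at day 3. Some coverage was called at 11 of them at day 35 and 10 at day 3, while Cdh5 and Sox17 had 0 at both days. Skeletal myogenic genes likewise gave 0 of 13 in both directions, with a median of 3.97% at day 35 and 0 at day 3. Of these 13, 11 had some coverage at day 35 and 6 at day 3. Myod1 and Myh1 had 0 at both days, while Myf5 had 16.0% and 11.7%. Blood and osteoclast genes had a median of 5.72% at day 35 and 1.92% at day 3, with 1 of 16 higher (6.25%) and 0 in both settings. Some coverage was called at 12 of them at day 35 and 9 at day 3, while Cd3e, Emr1 and Calcr had 0 at both days. Neural genes had a median of 3.83% at day 35 and 3.28% at day 3. Some coverage was called at 8 of 12 at day 35 and 7 at day 3, while Olig2, Sox2 and Snap25 had 0 at both days. Of 12 neural genes 1 was higher, Tubb3 with 36.2% and 16.4%, and 1 lower, Neurog2 with 19.2% at day 35 and 32.1% at day 3. Liver and epithelial genes had 2.89% at day 35 and 3.70% at day 3, and Foxa2, a pioneer factor of endoderm, was lower with 7.61% and 29.3%.

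Lists of cells related to bone had higher medians than these at day 35. The median of all genes was 9.57% at day 35 and 6.37% at day 3, so cartilage and adipocyte lists did not stand out from it. Cartilage genes had a median of 9.73% at day 35 and 5.23% at day 3. Of 14 genes 3 were higher (21.4%, beside 2.17% of genes of like coverage and 9.35% of all genes). Ihh, the hedgehog ligand of growth plate cartilage, had 25.9% at day 35 and 0 at day 3, and Sox9, the master regulator of cartilage, had 59.7% and 35.3%. Adipocyte genes had 9.03% and 3.59%, with 2 of 12 higher (16.7%, beside the same 2.17% and 9.35%). Cebpb, which also acts in osteoblasts, had 74.3% at day 35 and 43.3% at day 3, and Fabp4, a fatty acid carrier, had 16.9% and 2.55%. Sox9 and Cebpb belong to the genes with a mean coverage above 40%, of which 35.0% were higher. With lists of equal number Fabp4 differed by 0.443 points and did not pass. Pparg, the master regulator of fat cells, had 8.10% and 13.8%. Tendon and fibroblast genes had 51.5% at day 35 and 32.4% at day 3, with 5 of 15 higher and 2 lower. The higher share of 33.3%, led by Thy1 with 40% and 6.58%, was near the 35.0% of genes of like coverage. The lower ones were S100a4 with 55.0% and 66.9% and Tcf21 with 0 at day 35 and 12.2% at day 3. Contractile smooth muscle genes were higher in 1 of 14 (7.14%, below the 27.8% of genes of like coverage) and in 0 with lists of equal number as well. They were lower in 1, Tpm2 with 30.8% at day 35 and 43.7% at day 3.

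At start sites, taken with 1 kb on each side, the days were much closer than at distal regions. H3K4me2 was called at a start site of 13746 genes (64.6%) at day 35 and 12916 (60.7%) at day 3, and 12819 of these had it at both days. It was gained at 927 genes (4.36%) and lost at 97 (0.456%). With lists of equal number 508 were gained and 213 lost. With equal covered length 207 were gained and 720 lost, so the order turned. Around the start sites marked at both days, the 2 kb on each side were covered to a median of 67.5% at day 35 and 57.1% at day 3. The 927 gained start sites were mostly without H3K4me3, which was called at 32 of them at day 35 and 46 at day 3. H3K4me1 was called at 713 of them at day 35 and 608 at day 3, and H3K27Ac at 380 and 294. At the 97 lost start sites H3K27Ac was called at 27 at day 35 and 51 at day 3.

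At many start sites with H3K4me2 at both days H3K4me3 was called at day 3 alone. Of those 12819 genes 1262 (9.84%) were of that kind and 157 had H3K4me3 at day 35 alone. Genes with H3K4me2 and no H3K4me3 at a start site numbered 4691 at day 35 and 2777 at day 3. Among mitosis genes it was so at 11 of 22 (50.0%), among them Ccnb2, Aurkb, Bub1, Plk1, Cenpf and Prc1, which act in the spindle and its checkpoint. The interferon list had 11 of 28 (39.3%) and the DNA replication list 7 of 22 (31.8%), among them Rrm2, Cdc6, Gins1, E2f2, Tk1 and Pole. In the ribosomal, clock, collagen, G1 and IGF lists 0 genes did so. The H3K4me3 list is shorter at day 35, with 0.740 of the day-3 length, and its part in these counts was not tested.

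Acetylation of the same gene windows differed in the same direction in many cases. Among the 1736 genes with higher H3K4me2 in both settings, H3K27Ac was higher by over 10 points at 50.3% and lower at 5.47%, against 18.3% and 6.05% of all genes. All genes here include 5136 without any H3K4me2 region, so these shares are not matched for coverage. H4K5Ac was higher at 40.3%, against 13.8% of all genes, and H3K9Ac at 33.0%, against 7.35%. H3K4me3 was higher at 1.15% and lower at 4.78%, against 0.165% and 2.22% of all genes. Among the 123 genes with lower H3K4me2, H3K4me1 was lower at 60.2%, H3K9Ac at 52.0% and H3K27Ac at 43.1%. Of all genes these marks were lower at 10.3%, 3.79% and 6.05%. Across 16139 genes with any H3K4me2 region, Spearman's rho between the H3K4me2 difference and that of another mark was 0.38 for H4K5Ac, 0.37 for H3K27Ac, 0.31 for H3K4me1 and -0.02 for H3K4me3. These are descriptions across genes, which are not independent replicates, from 1 library a mark and day.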

How the data were processed

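Sequencing libraries of H3K4me2 immunoprecipitates at day 35 and day 3 (1 each, antibody Millipore 07-030) were deposited by the authors as lists of called regions with a score. The score is a number whose scaling the authors do not state, and it served to rank regions within a list. Per the submitters' processing notes the tools were Bowtie and HOMER and the build mm9; versions, filters and read depth were not found in the sources at hand. Depth is unknown, so the number of regions limits the precision.

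Regions on chromosomes 1 to 19 were compared with GENCODE M1 genes of assembly NCBIM37. Overlap meant at least 1 bp. Shares carry 95% Wilson intervals. Of 785 distinct listed genes 778 were found, 5 by an older symbol. Members, gene lists and the search letters were chosen with earlier results of these data known. Genes named: the 12 largest rises and 12 largest falls that also passed with lists of equal number, outside the chromosome 10 block and with no gene within 100 kb of another named; the 10 with most gained and 10 with most lost distal regions; the 10 without regions at day 3 and 10 at day 35 with the most at the other day; up to 6 called genes a list; and 15 bone genes in any case. Symbols of the form Gm with digits or ending in Rik were left out. Other genes in the text are list members, given for comparison after their values were seen. Values of some list genes are not reported here. Regions named are from the 8 highest-scoring gained and 8 lost. Alternatives were other windows and thresholds, stricter overlap, merged regions, the higher-scoring 50% of each list, lists of equal number or length, and no chromosome 10 block. The calculations were tested on simulated data and used Python 3.11.15, NumPy 2.4.6, SciPy 1.17.1 and Matplotlib 3.10.9.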

Additional observations from a re-analysis of the deposited data

How the results depend on the processing

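No paired analysis was possible because each day has 1 H3K4me2 library. Leaving out the chromosome 10 block, stricter sharing or a 5 kb distal limit moved no count by over 1.5 times. Merging regions closer than 1 kb could change nothing, as regions of a list lie at least 2000 bp apart. With lists of equal number the length ratio was 1.32, with 8215 gained and 7545 lost distal regions and 508 gained and 213 lost start sites. With equal covered length these were 1.00, 555, 19269, 207 and 720, and 306 genes were lower. With scores from the lowest day-3 score upwards, added after seeing the data, the ratio was 1.43. The higher-scoring 50% of each list gave 10232 gained and 841 lost distal regions and 55 lost start sites. Higher and lower genes numbered 1156 and 28 with 20 kb flanks, 5217 and 319 within 2 kb of start sites, and 464 and 31 for over 20 points. H3K27Ac at gained regions was 90.1% at day 35 and 88.2% at day 3 in the higher-scoring 50% of each list, 82.1% and 62.8% with equal number, and 89.3% and 67.7% for regions scored at or above the median of their list; in the central 500 bp the day-3 value was 51.8%. At lost regions it was 91.0% at day 35 and 98.2% at day 3, 69.6% and 85.3%, and 82.7% and 98.7% in the same 3 settings. Equal length turned Alpl (-8.36 points), Mepe (-5.21), Bglap and Bglap2 (-4.56 each), Mmp3 (-2.48), P2rx7 (-0.415) and Hoxb7 (-4.23). The 20 kb flanks turned H2-DMa (0.0114), and start-site windows Aspn (0.0250), Iigp1 (1.18), Igfbp6 (-1.43), Creb3l1 (-0.950) and Rpl32 (-0.400). The cause was not tested. Of the 140 named higher genes 139 still passed with equal number and 117 with equal length, and of the 34 lower ones all 34 in both. With 20 kb flanks 90 and 8 still passed, within 2 kb of start sites 87 and 14, and in the higher-scoring 50% of each list 130 and 31. The rules for rises, falls and list genes already asked for a pass with equal number. Equal number and equal length only take day-35 regions away, so the 34 lower genes could not leave the count. Depth is unknown, so a region absent from a list was not detectable in that library and is not shown to lack the mark.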
